A study of Mus musculus with 23 samples.

Results

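Heterozygosity for Meis1 was examined in the adult brain by setting 4 heterozygote arrays against 3 wild type arrays, which together make up 7 of the 23 arrays of the series. All 7 mice were C57BL/6J males of 23 weeks, each with an array of its own. The labels name Meis1 as the allele of both groups and brain as the tissue, and the sample titles give whole brain. The heterozygotes carried 1 changed copy, and the sources used here do not give the nature of the change. The other 16 arrays came from embryonic forebrain at E12.5 and served only for a test of whether the heterozygote effect differed with age.

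Meis1 codes for a homeobox transcription factor of the TALE family, which binds DNA together with Pbx partners and acts in the development of limbs, eye, blood and brain. Common variants at the human gene are associated with restless legs syndrome, a disorder of urge to move the legs at rest that has been tied to iron stores in the brain and to dopamine. In the adult mouse brain Meis1 is known from granule cells of the cerebellum, among others.

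Signals are given as log2 intensity after background correction and quantile normalization of the 7 arrays, changes as heterozygote minus wild type on that scale with the standard error (SE) of the fit, and group means with the standard deviation (SD). Detected probes numbered 13645 to 13796 in 3 heterozygotes and 14153 in the other one, against 14023 to 14140 in wild types. Mean raw signal was 354, 339, 292 and 270 in heterozygotes and 405, 346 and 344 in wild types, so heterozygote replicates 3 and 4 were the dimmest arrays. Correlation between arrays was 0.987 to 0.994 among heterozygotes, 0.989 to 0.991 among wild types and 0.985 to 0.994 between genotypes. Of the variance, 29.5% lay on the first principal component, with heterozygote replicates 3 and 4 at one end and wild type replicate 1 at the other. The labels do not say more of how the mice relate, so p-values measure only the spread between these samples.

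The tissue label was checked first. Of 12 listed general neuron genes 10 were above background and tested, while Snap25 and Nefl were not above it. The vesicle protein gene Syp was between 13.13 and 13.31 in heterozygotes and between 13.10 and 13.19 in wild types. Pituitary hormone genes, in contrast, were present in some dissections and near background in others. Gh, which codes for growth hormone, stood at 13.70, 13.14, 5.54 and 4.91 in heterozygotes and at 13.19, 4.60 and 10.50 in wild types. Prl, the prolactin gene, stood at 12.82, 11.68, 4.53 and 4.54 in heterozygotes and at 12.22, 4.62 and 9.67 in wild types. Both hormones were thus high in heterozygote replicates 1 and 2 and in wild type replicates 1 and 3, and near background in the other three arrays. Gh had the largest spread over the 7 arrays of any gene tested (SD 4.21), followed by Prl (SD 3.88) and Cga, the common subunit of the glycoprotein hormones (SD 2.29), and neither group was set apart by them.

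Meis1 itself was lower in heterozygotes on every array. Its probe stood at 7.79, 7.72, 7.66 and 7.05 in heterozygotes and at 8.49, 8.16 and 7.86 in wild types. The groups did not overlap, although the highest heterozygote and the lowest wild type were close. The mean was 7.56 ± 0.34 in heterozygotes (SD, n = 4) and 8.17 ± 0.32 in wild types (SD, n = 3), a change of -0.62 ± 0.19, or 0.652 times the wild type signal. By limma this missed the threshold over all probes (adjusted p = 0.387). Heterozygote replicate 4, the lowest for Meis1, was also the lowest for cerebellum genes, and without it the Meis1 change was -0.45. The part that the amount of cerebellum had in the Meis1 values was not tested. The array carries 1 Meis1 probe, and the sources used here do not say whether it lies in the changed portion of the gene.

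No probe passed the threshold of an adjusted p under 0.05 by limma, 0 of 14266 tested (0%). By the unadjusted p alone, 716 probes under 0.05 were higher in heterozygotes (5.02%) and 802 were lower (5.62%), or 1518 in all, against an average of 713 if nothing differed. The smallest adjusted p was 0.278. In all heterozygotes 774 probes lay above all wild types (5.43%) and 716 lay below them all (5.02%). Positive changes made up 7318 probes (51.3%), and the median change was 0.01. With median scaling in place of quantile normalization the median of all probes moved to -0.11. The split at an unadjusted p under 0.05 by limma became 200 higher and 2217 lower. Positive and negative below mean above and below 0, so counts and medians given with median scaling carry this shift. The unadjusted count was 913 without wild type replicate 2, 977 without heterozygote replicate 3 and 2448 without wild type replicate 3.

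**Figure D1:**
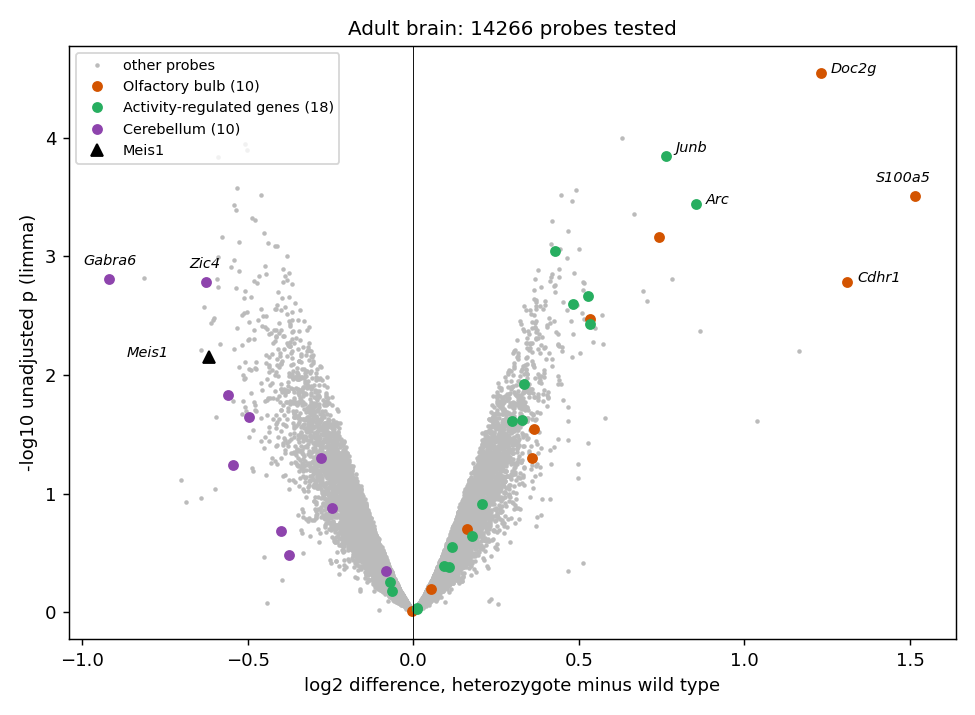
Change in signal (x axis, log2, heterozygote minus wild type) against the negative log10 of the unadjusted limma p (y axis) for the 14266 probes tested, with the olfactory bulb, activity-regulated and cerebellum genes coloured and Meis1 as a triangle. The orange and green points lie mostly right of 0 and all 10 purple points lie left of it.

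The changes at the top of the ranking were small to moderate in size: 5 probes differed by 1 or more, and 86 by 0.5 or more. The 5 were the olfactory bulb genes Doc2g, S100a5 and Cdhr1 and 2 probes of Actb, the gene of cytoskeletal beta-actin. Actb was singled out after its values were seen, and its probes differed among themselves. These 2 probes were at 1.16 ± 0.35 and 1.04 ± 0.40, whereas 3 brighter Actb probes were at 0.41, 0.11 and 0.02. On the first of them heterozygotes stood at 7.40, 7.10, 7.77 and 8.21 and wild types at 5.46, 6.94 and 6.97, so wild type replicate 1 was far below the rest.

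The olfactory bulb relays smell from the nose to the cortex through mitral and tufted cells, and its interneurons, some of them dopaminergic, are replaced throughout life. Of 15 listed olfactory bulb genes 10 were tested, and 9 of them had a positive change, with a median of 0.45 against 0.01 over all probes. At an unadjusted p under 0.05 were 6 higher and 0 lower, while 0 passed over all probes. In 5 members every heterozygote lay above every wild type. Over all probes 5.02% were higher at an unadjusted p under 0.05 by limma, and 5.43% had every heterozygote above every wild type.

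Doc2g, a calcium sensor-like gene of the Doc2 family marking mitral and tufted cells, had the smallest p of all probes. It stood at 6.63, 6.08, 6.93 and 6.51 in heterozygotes and at 5.57, 5.30 and 5.05 in wild types. Every heterozygote was above every wild type. The change was 1.23 ± 0.18, or 2.35 times the wild type signal (adjusted p = 0.278 by limma), and a second, dimmer Doc2g probe was at 0.45. The first of these probes passed with median scaling (adjusted p = 0.0168), with a variance prior that follows intensity (0.0113) and without heterozygote replicate 2 (0.0268).

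S100a5, a calcium-binding protein gene typical of olfactory sensory neurons, was at 6.98, 6.04, 6.99 and 6.85 in heterozygotes and at 5.90, 5.16 and 4.53 in wild types. Heterozygote replicate 2 was well below its group but still above the highest wild type. The probe was detected on 2 of the 3 wild type arrays, and probes were tested if detected on at least 3 arrays. Wild types alone would thus not have carried it into the test. The change was 1.52 ± 0.30 (adjusted p = 0.352 by limma). Cdhr1, a photoreceptor cadherin gene also made by mitral and tufted cells, was at 8.09, 8.01, 8.64 and 8.39 in heterozygotes and at 7.74, 7.18 and 6.00 in wild types. Wild type replicate 3 was the lowest by over 1 log2 unit, and the change of 1.31 ± 0.32 (adjusted p = 0.366 by limma) was 0.82 without it.

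Th, the tyrosine hydroxylase gene of dopamine synthesis, which periglomerular cells of the bulb use, was at 6.76, 6.54, 7.14 and 6.75 in heterozygotes and at 6.35, 5.77 and 6.04 in wild types. The groups did not overlap, with a change of 0.74 ± 0.16 (adjusted p = 0.366 by limma). Dlx1, a homeobox gene of interneurons in bulb and cortex, was at 8.34, 8.19, 8.58 and 8.28 in heterozygotes and at 8.11, 7.81 and 7.51 in wild types, again without overlap, a change of 0.53 ± 0.14. At the other end Calb2, the calretinin gene of granule and periglomerular cells, was at 0.00 ± 0.14 and Meis2, a close relative of Meis1, at 0.05 ± 0.11. Calb2 and Meis2 were singled out after their values were seen. Eomes, Tbx21 and Omp, which mark mitral and tufted cells and sensory neurons, were not above background.

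The mean log2 signal over the 10 members was 7.59 ± 0.15 in heterozygotes and 6.96 ± 0.30 in wild types (SD, n = 4 and 3). By array it was 7.60, 7.40, 7.76 and 7.58 in heterozygotes and 7.27, 6.92 and 6.68 in wild types, so that no array of one group reached the other. Of the 37 lists, the mean was also apart for activity-regulated genes (higher) and for cerebellum, restless legs, GABA and platelet genes (lower). How many lists would be apart with no effect was not tested. The platelet member Ppbp was above background only in wild types. With detection p under 0.01 required on every array of either group, 1 platelet member remained, at 0.14. For the olfactory bulb genes, leaving out 1 array at a time gave 8 to 10 positive members and medians of 0.38 to 0.60. In bulk tissue, a difference in the number of cells of a type and a difference in RNA per cell cannot be told apart. The part that the amount of bulb in each dissection had in these values was not tested. With the pituitary level of each array as a covariate, chosen after the data were seen, 9 of 10 members were positive with a median of 0.45. That level averaged 6.89 in heterozygotes and 6.78 in wild types, so this covariate could hardly move the genotype change. It does not measure the amount of bulb.

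Activity-regulated genes are switched on within minutes in neurons that fire, by calcium and cyclic AMP signals acting on factors such as Creb and Srf. Of 24 listed genes 18 were tested, and 16 had a positive change with a median of 0.25 against 0.01 over all probes. At an unadjusted p under 0.05 were 9 higher and 0 lower, by limma, while 0 passed over all probes. In 7 members every heterozygote lay above every wild type. The shares over all probes were 5.02% higher at that p and 5.43% with every heterozygote above every wild type.

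Junb, a partner of Fos in the transcription factor AP-1, was at 8.71, 8.76, 8.91 and 8.95 in heterozygotes and at 7.85, 7.95 and 8.41 in wild types. All heterozygotes were above all wild types, with a change of 0.76 ± 0.14, or 1.70 times (adjusted p = 0.295 by limma). It passed with the variance prior that follows intensity (adjusted p = 0.0174). Arc, whose protein forms capsids and removes AMPA receptors from synapses, was at 9.55, 9.59, 9.36 and 9.94 in heterozygotes and at 9.02, 8.36 and 8.89 in wild types. The groups were again apart, with a change of 0.85 ± 0.17, or 1.81 times (adjusted p = 0.352 by limma).

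Fosb, another AP-1 subunit, was at 7.55, 7.47, 7.65 and 7.72 in heterozygotes and at 7.13, 7.21 and 7.17 in wild types, a change of 0.43 ± 0.10. Egr2, a zinc finger factor induced with them, was at 7.25, 7.27, 7.02 and 7.58 in heterozygotes and at 6.93, 6.65 and 6.67 in wild types, a change of 0.53 ± 0.13. Neither gene's groups overlapped, and each had adjusted p = 0.366 by limma.

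The remaining members were singled out after their values were seen. Fos, the classical marker of recently active cells, was at 8.72, 8.46, 8.17 and 8.46 in heterozygotes and at 8.05, 7.96 and 7.91 in wild types, a change of 0.48 ± 0.12. Npas4, a factor specific to calcium entry in neurons, was at 7.37, 7.69, 7.27 and 7.37 in heterozygotes and at 6.69, 6.74 and 7.24 in wild types, a change of 0.53 ± 0.15. Both were apart between the groups, Npas4 by a narrow margin. Dusp1, a phosphatase that ends MAP kinase signals, was at 0.33 ± 0.11, Gadd45b, a DNA demethylation factor, at 0.33 ± 0.13 and Egr4 at 0.30 ± 0.11.

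Some members differed little. Egr1, one of the most used activity markers, was at 0.09 ± 0.11, Egr3 at 0.01 ± 0.11, and the neurotrophin gene Bdnf at 0.01 ± 0.11. Homer1, which codes for a postsynaptic scaffold and its short activity-induced form, was at -0.07 ± 0.12, and Dusp6 at -0.07 ± 0.15. Of the listed genes Nr4a1, Nr4a3, Ier2, Btg2, Sik1 and Trib1 were not above background.

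The mean over the 18 members was 8.17 ± 0.07 in heterozygotes and 7.89 ± 0.06 in wild types (SD, n = 4 and 3). By array it was 8.12, 8.18, 8.11 and 8.27 in heterozygotes, all above 7.90, 7.83 and 7.94 in wild types. Leaving out 1 array at a time gave 14 to 17 positive members and medians of 0.21 to 0.33. Median scaling gave 12 of 18 and a median of 0.15, against -0.11 over all probes. With the pituitary level, about even between the groups, as a covariate 16 of 18 were positive with a median of 0.26. The sources used here do not say how the mice were killed or at what time of day. In the clock gene list 9 of 14 were positive with a median of 0.03, with Per1, a clock gene also induced by activity, at 0.32 ± 0.13 and Nr1d1, a repressor of the clock, at 0.26 ± 0.13. Glucocorticoid-responsive genes stood at 5 of 11 (median -0.01) and heat shock genes at 3 of 12 (median -0.05).

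**Figure D2:**
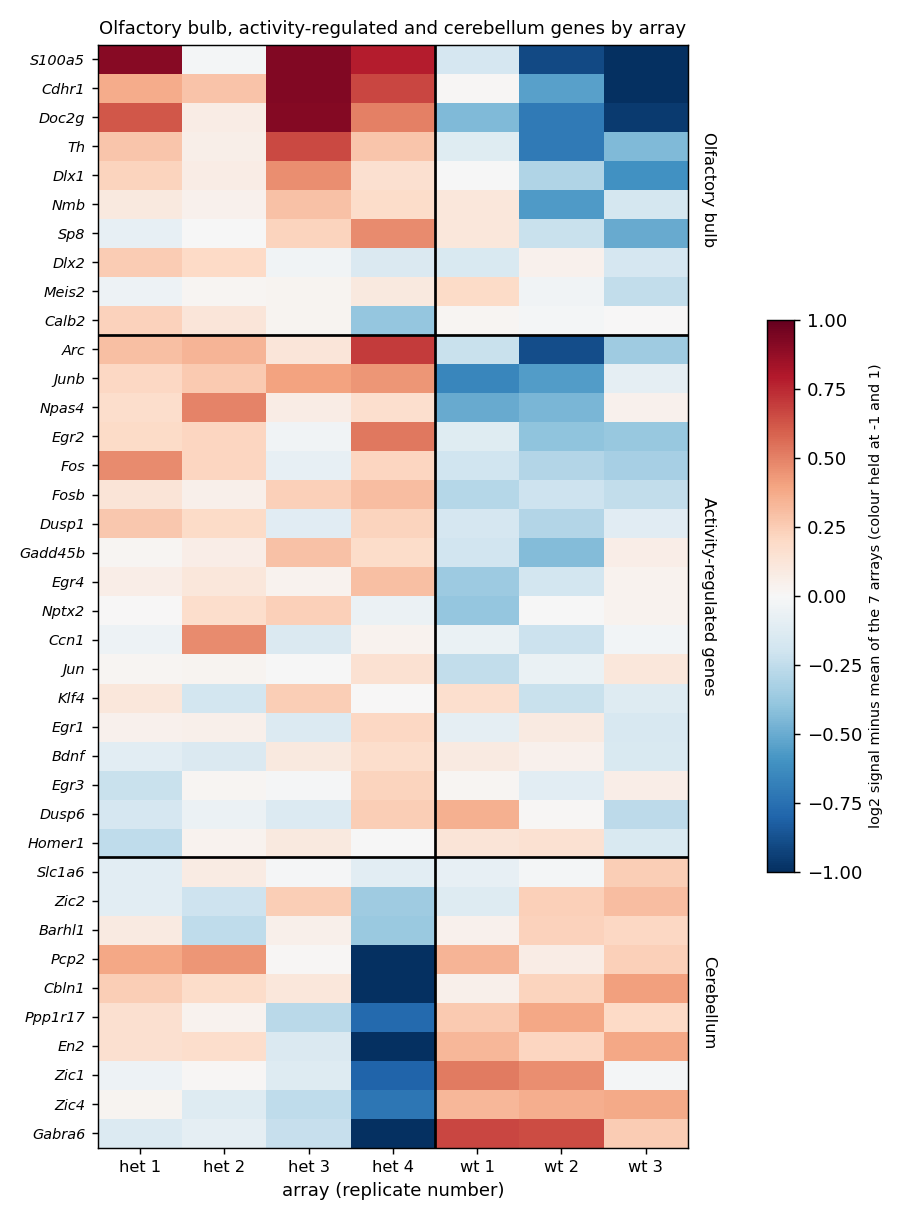
Log2 signal of each tested olfactory bulb, activity-regulated and cerebellum gene (rows) minus its mean over the 7 arrays, by array (columns, heterozygotes left of the line and wild types right of it). Red is above and blue below the mean. Heterozygote replicate 4 stands out in the cerebellum block and wild type replicate 3 in the top rows.

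Promoters of some activity-regulated genes are shown, all of them holding the motif marked in them. Most members of the list had a positive change, and cyclic AMP signals are known to act on such genes. The 250 bases before the transcription start were read from RefSeq (GRCm38.p6), and capitals mark the half-site of the cyclic AMP response element, TGACG, on either strand (written CGTCA when on the other strand). Other motifs were searched too, and this half-site was chosen after the windows were seen.
Fos (chr12:85473640-85473889, plus strand): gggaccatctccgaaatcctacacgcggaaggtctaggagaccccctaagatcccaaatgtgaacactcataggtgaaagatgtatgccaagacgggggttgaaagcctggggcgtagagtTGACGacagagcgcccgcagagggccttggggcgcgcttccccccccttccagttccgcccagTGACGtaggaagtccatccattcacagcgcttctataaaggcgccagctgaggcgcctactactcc
Fosb (chr7:19310046-19310295, minus strand): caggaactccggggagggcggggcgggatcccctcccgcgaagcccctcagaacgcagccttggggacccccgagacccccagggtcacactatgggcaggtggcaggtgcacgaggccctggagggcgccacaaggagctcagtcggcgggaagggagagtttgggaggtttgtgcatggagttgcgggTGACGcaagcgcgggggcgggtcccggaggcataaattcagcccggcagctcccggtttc
Junb (chr8:84978749-84978998, minus strand): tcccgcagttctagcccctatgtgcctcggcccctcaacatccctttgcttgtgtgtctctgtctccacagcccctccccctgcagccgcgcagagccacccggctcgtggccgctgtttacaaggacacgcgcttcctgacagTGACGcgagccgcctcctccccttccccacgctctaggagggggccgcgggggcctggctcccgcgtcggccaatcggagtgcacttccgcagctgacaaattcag
Npas4 (chr19:4989972-4990221, minus strand): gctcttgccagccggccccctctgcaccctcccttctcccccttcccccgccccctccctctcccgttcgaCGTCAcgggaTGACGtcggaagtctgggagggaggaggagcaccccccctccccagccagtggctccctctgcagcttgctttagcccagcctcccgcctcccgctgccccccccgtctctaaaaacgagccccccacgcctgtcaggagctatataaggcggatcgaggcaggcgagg
Egr4 (chr6:85513590-85513839, minus strand): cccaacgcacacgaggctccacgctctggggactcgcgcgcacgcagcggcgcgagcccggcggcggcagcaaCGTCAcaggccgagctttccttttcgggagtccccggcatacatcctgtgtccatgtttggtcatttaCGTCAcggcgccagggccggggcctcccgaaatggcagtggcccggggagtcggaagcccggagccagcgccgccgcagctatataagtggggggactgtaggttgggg
The half-site begins 129 and 66 bases before the start in Fos, 60 in Fosb, 106 in Junb, 179 and 169 in Npas4, and 177 and 109 in Egr4. Of the 18 tested members 14 had a window, and 11 of these (78.6%) held the half-site, against 19.8% of 27025 genes. Among the 11 were also Egr2, Dusp1, Klf4, Ccn1, Homer1 and Bdnf, so genes with a change of 0.53 and genes near 0 both carried it. Jun, Gadd45b and Dusp6 had a window without it. The list holds genes known to answer cyclic AMP signals, so a high share is no separate support for their changes. The whole element TGACGTCA was found in Dusp1 alone of the 14 and in 1.77% of genes.

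The TALE core TGACAG, the letters that Meis proteins are known to bind, was searched in the same way. It was in 4 of the 14 activity-regulated windows (28.6%), in 2 of 9 olfactory bulb windows (22.2%) and in 1 of 6 cerebellum windows, against 17.9% of genes. The CArG box, the motif of Srf, was in 1 of the 14 activity-regulated windows, against 1.62% of genes. No bulb or cerebellum window held the CArG box. The Olf/Ebf motif was in 0 of the 14, 0 of the 9 and 0 of the 6 windows, against 0.914% of genes. Doc2g is printed as the gene of smallest p, with capitals at the 1 match, which begins 41 bases before the start and reads CTGTCA, the core on the other strand.
Doc2g (chr19:4003135-4003384, plus strand): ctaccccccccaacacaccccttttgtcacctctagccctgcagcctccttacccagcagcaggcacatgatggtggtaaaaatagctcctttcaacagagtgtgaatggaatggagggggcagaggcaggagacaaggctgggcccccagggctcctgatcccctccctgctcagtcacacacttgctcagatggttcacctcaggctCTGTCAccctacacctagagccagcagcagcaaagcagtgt

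The cerebellum holds most neurons of the brain, chiefly granule cells, where Meis1 is expressed. Of 15 listed genes 10 were tested, all 10 had a negative change, and the median was -0.45 against 0.01 over all probes, or -0.22 without heterozygote replicate 4. At an unadjusted p under 0.05 were 4 lower and 0 higher by limma, and 0 passed over all probes. In 4 members every heterozygote lay below every wild type. The shares over all probes were 5.62% lower at that p and 5.02% with every heterozygote below every wild type.

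Gabra6, the granule cell subunit of the GABA-A receptor, was at 5.57, 5.62, 5.48 and 4.59 in heterozygotes and at 6.38, 6.36 and 5.97 in wild types. All heterozygotes were below all wild types and replicate 4 was the lowest, with a change of -0.92 ± 0.22, or 0.529 times (adjusted p = 0.366 by limma). Zic4, a zinc finger gene of granule cell precursors that lies beside Zic1, was at 6.66, 6.51, 6.38 and 5.91 in heterozygotes and between 6.97 and 7.02 in the 3 wild types. The groups were apart, with a change of -0.63 ± 0.15 (adjusted p = 0.366 by limma).

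Zic1 was at 9.50, 9.56, 9.42 and 8.75 in heterozygotes and at 10.07, 10.02 and 9.53 in wild types, a change of -0.56 ± 0.20 with a slight overlap. Ppp1r17, a phosphatase inhibitor of Purkinje cells, was at 5.69, 5.56, 5.26 and 4.75 in heterozygotes and at 5.79, 5.92 and 5.73 in wild types, a change of -0.50 ± 0.19. In both the lowest array was heterozygote replicate 4, without which Ppp1r17 was at -0.31.

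That array was low for Purkinje cell and granule cell genes alike. Pcp2, a Purkinje cell gene, was at 10.47, 10.52, 10.10 and 8.59 in heterozygotes and at 10.42, 10.15 and 10.32 in wild types. Cbln1, the granule cell synapse organizer, was at 11.26, 11.20, 11.13 and 9.78 in heterozygotes and at 11.07, 11.23 and 11.42 in wild types. For these 2 genes, singled out after their values were seen, only heterozygote replicate 4 lay apart and the other three heterozygotes were level with wild types.

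The mean over the 10 members was 7.39, 7.34, 7.26 and 6.51 in heterozygotes and 7.55, 7.60 and 7.58 in wild types. Without heterozygote replicate 4, 9 of 10 members were negative and Gabra6 was at -0.68. The other omissions gave medians down to -0.59. With the pituitary level, about even between the groups, as a covariate 10 of 10 were negative with a median of -0.46. Median scaling gave 10 of 10 and -0.55, against -0.11 over all probes. The part that the amount of cerebellum in each dissection had in these values was not tested.

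**Figure D3:**
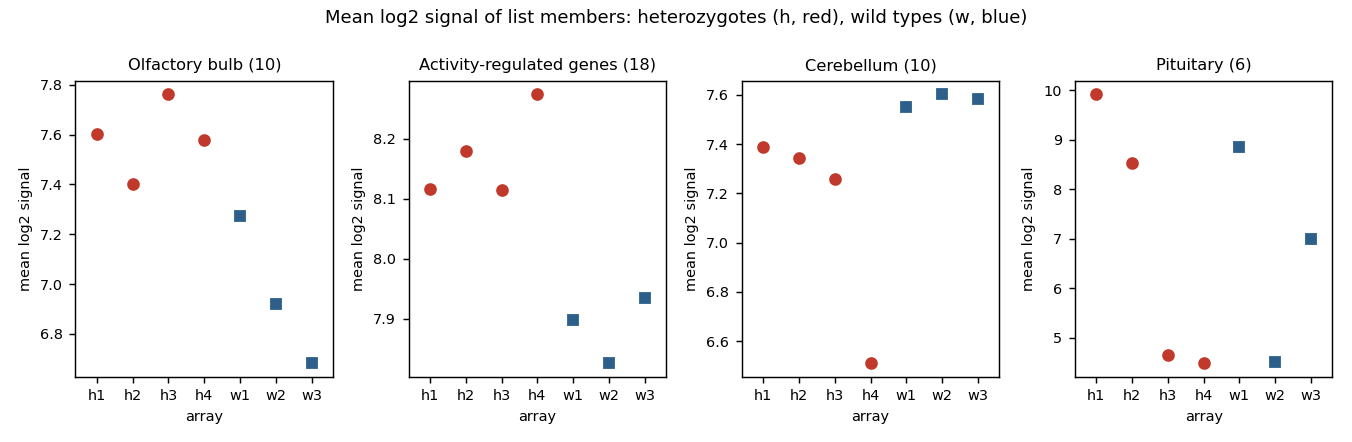
Mean log2 signal of the tested members of 4 lists on each array (x axis, heterozygote arrays h1 to h4 as red circles, then wild type arrays w1 to w3 as blue squares). Heterozygotes lie above wild types for olfactory bulb and activity-regulated genes and below them for cerebellum genes, while pituitary genes vary within both groups.

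Other regions showed smaller shifts, none with a member past the threshold. Hypothalamus genes were positive in 9 of 10 cases with a median of 0.17. Trh, the thyrotropin-releasing hormone gene, was at 7.77, 7.65, 8.03 and 7.70 in heterozygotes and at 7.45, 7.24 and 7.22 in wild types, apart by 0.49 ± 0.12. Pmch, the melanin-concentrating hormone gene of the lateral hypothalamus, was the 1 negative member at -0.34 ± 0.12. The hypothalamus median was 0.08 without heterozygote replicate 3 and 0.11 without wild type replicate 1 or 2, and 7 to 9 members were positive when 1 array was left out. With median scaling 6 of 10 were positive, with a median of 0.03 against -0.11 over all probes.

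Neuropeptide precursors were positive in 12 of 16 cases with a median of 0.09, among them Npy at 0.28 ± 0.11 and Cck at 0.24 ± 0.11. Hindbrain genes were positive in 3 of 10 (median -0.19, or -0.08 without wild type replicate 1), with Slc5a7, the choline transporter gene of cholinergic neurons, at -0.41 ± 0.16. Thalamus genes were positive in 2 of 9 (median -0.09), striatal projection neuron genes in 9 of 16 (median 0.07), hippocampus genes in 4 of 8 (median -0.05) and cortical projection neuron genes in 7 of 12 (median 0.01).

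Cortical interneuron genes were positive in 6 of 11 (median 0.03). Htr3a, the serotonin-gated channel gene of one interneuron class, was among the smallest p of all probes. It was at 5.46, 5.52, 5.59 and 5.49 in heterozygotes and at 5.08, 5.13 and 5.08 in wild types, a narrow spread in each group and a change of 0.42 ± 0.09 (adjusted p = 0.359 by limma). Somatostatin (Sst) was at 0.11 ± 0.11 and Gad1, the main enzyme of GABA synthesis, at -0.14 ± 0.12, both singled out after their values were seen.

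**Figure D4:**
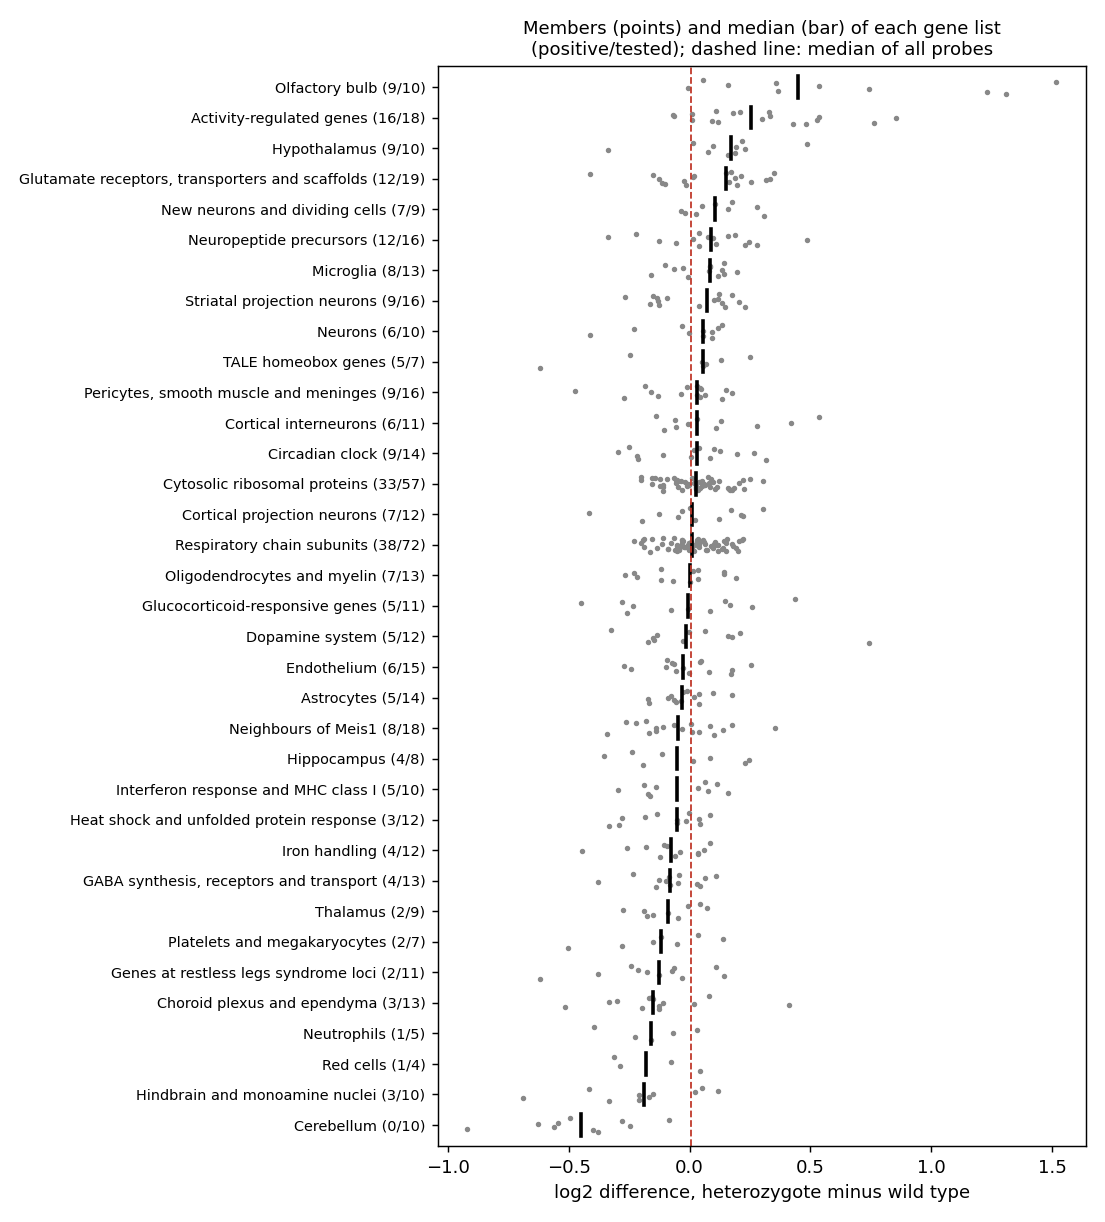
Change of each tested member (points) and the median (bar) for the gene lists, ordered by median, with the number of positive members over the number tested in brackets and the median of all probes as a dashed line; the x axis is log2, heterozygote minus wild type. The olfactory bulb and activity-regulated lists lie at the top and the cerebellum list at the bottom, with medians of 0.45, 0.25 and -0.45. The pituitary and sex-linked lists are not drawn.

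Genes tied to restless legs were mostly lower, with 9 of 11 tested members negative and a median of -0.13. At an unadjusted p under 0.05 by limma were 3 of them, Meis1 included, against 5.62% of all probes in that direction. Myt1, a zinc finger factor of neurons and oligodendrocyte precursors, was between 6.88 and 7.18 in the 4 heterozygotes and at 7.29, 7.31 and 7.22 in wild types, apart by a change of -0.24 ± 0.10. Tox3, a chromatin factor gene, was at 4.67, 5.08, 4.46 and 4.48 in heterozygotes and at 5.30, 4.98 and 4.87 in wild types, with overlap and a change of -0.38 ± 0.16, or -0.25 without wild type replicate 1. Its probe was detected on 1 heterozygote array and on all 3 wild type arrays. Heterozygotes alone would not have carried it past the detection filter, so the filter favoured a difference there. Prmt6, an arginine methyltransferase gene, was at -0.18 ± 0.10.

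Iron handling genes were negative in 8 of 12 with a median of -0.08. Ireb2, which codes for an iron-sensing regulator of ferritin and transferrin receptor RNA, was at 5.69, 5.76, 5.75 and 5.73 in heterozygotes and at 6.09, 6.40 and 6.04 in wild types. The heterozygotes lay close together and all below the wild types, with a change of -0.44 ± 0.11 (adjusted p = 0.366 by limma). The transferrin receptor gene Tfrc, singled out after its values were seen, was at -0.12 ± 0.14, and the iron oxidase genes Heph and Cp were at -0.26 ± 0.12 and -0.18 ± 0.11.

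In the dopamine system 5 of 12 genes were positive with a median of -0.02. Th was the 1 member at an unadjusted p under 0.05 by limma, where 5.02% of all probes were higher. The other genes of dopamine neurons did not share its size: Aldh1a1, an aldehyde dehydrogenase of ventral midbrain neurons, was at -0.32 ± 0.16 and Ddc, the next enzyme of dopamine synthesis, at -0.17 ± 0.10. The receptor gene Drd2 was at 0.18 ± 0.10.

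Within the TALE family 5 of 7 tested genes were positive with a median of 0.05. With median scaling this became 1 of 7 and -0.10, where the median of all probes was -0.11. Pknox2 was at -0.25 ± 0.11 and Pknox1 at 0.25 ± 0.14, and the Pbx partner gene Pbx3 was at 0.13 ± 0.09. Of the genes next to Meis1 on its chromosome 8 of 18 were positive with a median of -0.05. The closest to a call among them were Rab1a, a vesicle transport GTPase gene, at 0.35 ± 0.12, Vstm2a at -0.34 ± 0.14 and Peli1, a ubiquitin ligase gene, at -0.22 ± 0.09.

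**Figure D5:**
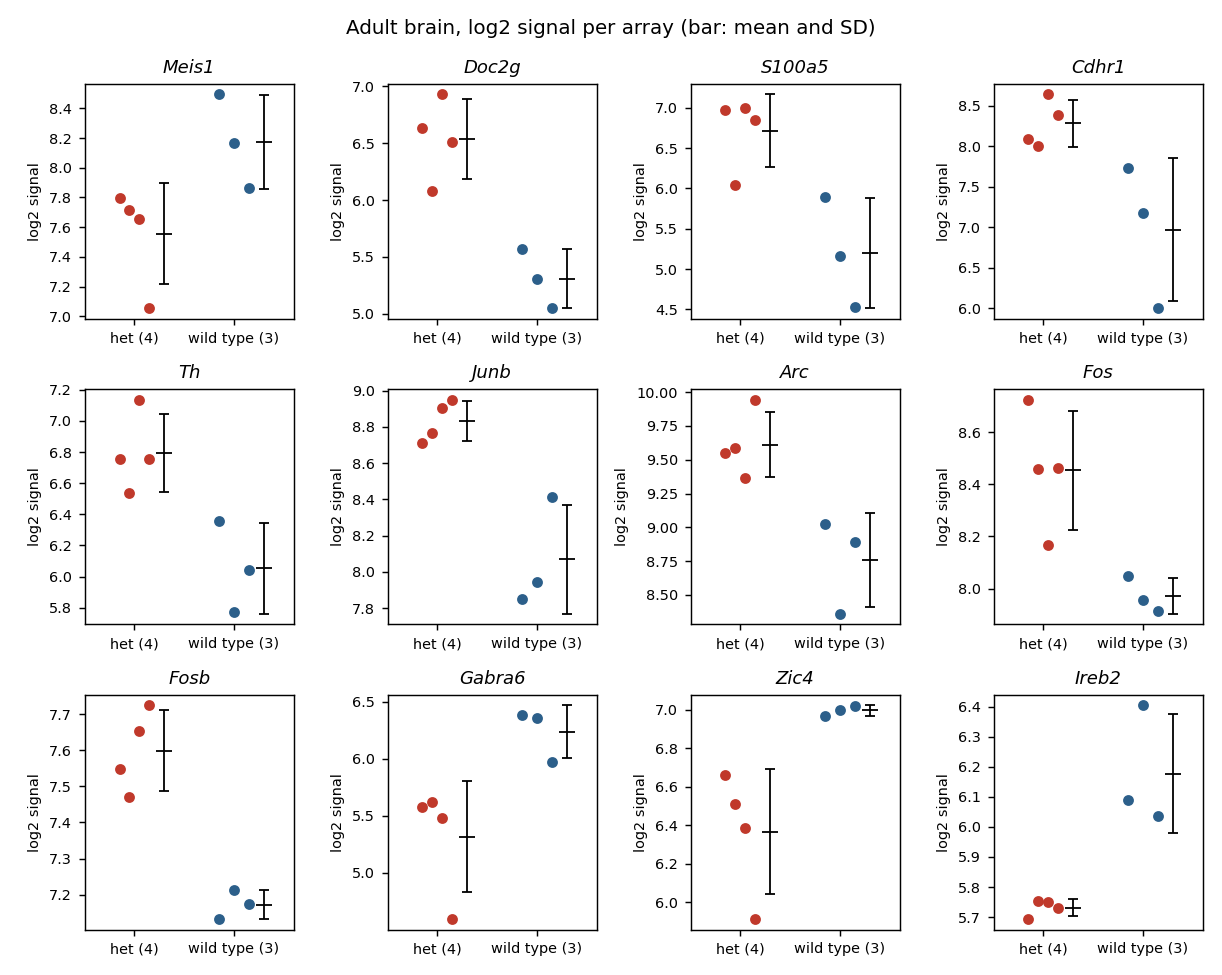
Log2 signal of 12 genes on each array (y axis, own scale per panel), heterozygotes in red at the left and wild types in blue at the right, with mean and SD as bars. The groups do not overlap in any of the 12 panels, with the smallest changes for Fosb and Ireb2 at 0.43 and -0.44. The genes were chosen with their values known, so the lack of overlap is no separate support. Over all probes, 5.43% had every heterozygote above every wild type and 5.02% had every heterozygote below.

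Of the genes with the smallest p in the upward direction, several were on none of the lists. Tnfrsf25, a death receptor of the tumour necrosis factor family, was at 6.82, 6.75, 6.75 and 6.96 in heterozygotes and at 6.30, 5.99 and 6.28 in wild types, a change of 0.63 ± 0.11. Agap3, a GTPase-activating protein of synapses, was at 0.44 ± 0.09, but another Agap3 probe of about equal signal was at 0.13. Otop2, a proton channel gene, was at 0.67 ± 0.14 and Tm6sf2, a lipid transport gene, at 0.48 ± 0.09, both dim and detected on 2 and 1 of the wild type arrays. Map3k20, a stress kinase gene, and Mzb1, a plasma cell chaperone gene, were not above background in any wild type, and each was at least 1.24-fold higher in heterozygotes. These 2 probes passed the detection filter only through the heterozygotes, so the filter itself favoured a difference there. Wild types alone would not have carried the probes of Otop2 and Tm6sf2 past the filter either. Other detected Map3k20 probes were at -0.28 and -0.07. Adjusted p for these 6 genes lay between 0.295 and 0.366 by limma.

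The genes with the smallest p in the downward direction were also dim. D3Ertd751e, Ppbp (a platelet chemokine gene), Pramel27 and Dydc2 were not above background in any heterozygote, and were at least 1.29-fold, 1.25-fold, 1.12-fold and 1.19-fold lower there than in wild types. They passed the detection filter only through the wild types, so the filter itself favoured a difference and their rank is no separate support for one. Ska2, a spindle gene, was at 5.55, 5.63, 5.63 and 5.64 in heterozygotes and at 6.18, 6.14 and 6.04 in wild types, a change of -0.51 ± 0.09 without overlap. Fgf7, a fibroblast growth factor gene, was at -0.54 ± 0.11 and Fhit, a nucleotide hydrolase gene, at -0.53 ± 0.12. Gpr34, a microglial lipid receptor gene, was at -0.54 ± 0.11, and another Gpr34 probe of about equal signal was at -0.27 ± 0.14 with overlapping groups.

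In 4 further genes a brighter probe of the same gene did not share the change. Mdh1, the cytosolic malate dehydrogenase gene, was at -0.46 ± 0.09 on the named probe and at -0.06 on the brighter one. Cnot2, of the Ccr4-Not deadenylase, was at -0.58 ± 0.12, and 3 brighter probes were between -0.08 and 0.03. Adam23, a synaptic adhesion gene, was at -0.49 ± 0.10 against -0.12 and -0.03, and Ezh1, a histone methyltransferase gene, at -0.45 ± 0.10 against -0.07. The named Ezh1 probe was detected on 1 heterozygote array and all 3 wild type arrays. Heterozygotes alone would not have carried it past the detection filter. Adjusted p for the 12 genes lower in heterozygotes lay between 0.278 and 0.366 by limma.

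Cell class genes showed no common shift. Medians were 0.00 for oligodendrocytes (7 of 13 positive), -0.03 for astrocytes (5 of 14), 0.08 for microglia (8 of 13), -0.03 for endothelium (6 of 15), 0.03 for pericytes, smooth muscle and meninges (9 of 16) and 0.10 for new neurons and dividing cells (7 of 9, median 0.03 without heterozygote replicate 4). Blood was measured by red cell genes (1 of 4 positive, median -0.18), neutrophil genes (1 of 5, median -0.16) and platelet genes (2 of 7, median -0.12, or -0.08 without heterozygote replicate 1). Under the stricter detection p of 0.01 only 1 platelet member remained, at 0.14. The red cell median ran from -0.34 without wild type replicate 1 to 0.15 without wild type replicate 2, and the neutrophil median from -0.47 without wild type replicate 3 to 0.21 without wild type replicate 1. Choroid plexus genes were positive in 3 of 13 (median -0.15, or -0.09 without heterozygote replicate 4), with Aqp1, the water channel gene of the plexus, at 0.41 ± 0.10 and Folr1, its folate receptor gene, at -0.51 ± 0.18, in opposite directions.

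General neuron genes were positive in 6 of 10 (median 0.06). Stmn2, a growth-associated tubulin binder, was at 11.78, 11.80, 11.78 and 11.83 in heterozygotes and at 12.01, 12.03 and 12.05 in wild types. The spread within each group was small and the change was -0.23 ± 0.08 (adjusted p = 0.424 by limma). Nefm, a neurofilament gene, was at -0.41 ± 0.13.

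At synapses, GABA genes were positive in 4 of 13 (median -0.08), with Gabrb2, a GABA-A receptor subunit gene, at -0.38 ± 0.13. Glutamate genes were positive in 12 of 19 (median 0.15), with the kainate receptor genes Grik2 and Grik5 at 0.32 ± 0.11 and 0.33 ± 0.12 and the scaffold gene Shank3 at 0.35 ± 0.12. The Grik2 probe was dim and detected on 1 of the 3 wild type arrays, so wild types alone would not have carried it past the detection filter. The glutamate median was 0.01 without wild type replicate 1, 0.02 without wild type replicate 3 and 0.08 without heterozygote replicate 4. With median scaling it was -0.02, against -0.11 over all probes. Without wild type replicate 1 Grik5 was at 0.19. Ribosomal protein genes (33 of 57, median 0.03), respiratory chain genes (38 of 72, median 0.01) and interferon genes (5 of 10, median -0.05) were near the median of all probes. The sex labels held in all 7 arrays, with Xist not above background and Eif2s3y between 7.27 and 7.73 in heterozygotes and between 7.68 and 8.11 in wild types.

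Whether the heterozygote effect differed between the adult whole brain and E12.5 forebrain was tested in a fit of all 23 arrays, normalized together. A difference here could lie with age or with tissue, which cannot be told apart. No probe passed by limma, 0 of 16352, with 1108 at an unadjusted p under 0.05. Meis1 averaged 8.43 ± 0.37 in adult heterozygotes and 9.10 ± 0.34 in adult wild types, against 9.35 ± 0.14 in embryonic heterozygotes (n = 6) and 9.70 ± 0.17 in embryonic wild types (n = 5). The adult change was -0.67 and the embryonic one -0.40 on this scale, and their difference was -0.28 ± 0.23 (adjusted p = 0.839 by limma). The smallest p for the difference were those of Dydc2, Pramel27 and D3Ertd751e, none of them above background in any adult heterozygote. Dydc2 and Pramel27 were also not above background on any embryonic array, so no embryonic change could be measured for them. Both passed the detection filter only through the adult wild types, and their small p is no separate support for a difference. Doc2g and Arc, which were at 1.51 and 0.85 in adults on the joint scale, were at 0.14 and -0.06 in embryos, with adjusted p of 0.322 and 0.290 by limma for the difference. S100a5 was not above background on any embryonic array and is not compared.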

How the data were processed

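Total RNA of each brain was hybridised as biotin-tagged cRNA to 1 Illumina array of 25697 probes and read with GenomeStudio 2011.1, per the submitters' processing notes. The deposited table without normalization holds an intensity per probe and array with a detection p-value, per the file headers. A further deposited table holds intensity values processed by the authors, whose scaling method the sources used here do not give. It served as an alternative.

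Here background was removed from the 7 adult arrays by limma 3.58.1 (R 4.3.3, normal-exponential model with noise from detection p-values, offset 16), and log2 signals followed after quantile normalization. Probes with detection p under 0.05 on at least 3 of 7 arrays were tested with limma (lmFit and eBayes, two-sided, genotype alone, Benjamini-Hochberg over 14266 probes, threshold 0.05). The stage test used all 23 arrays with sex and litter, read from mouse numbers, as terms. The fit was tested on simulated data. Of all probes 23978 carried 1 gene symbol and 1719 none.

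Each list gene was represented by its probe of highest mean signal, with 37 lists described by counts and medians and no set test. Named were Meis1, up to 12 genes of smallest p in each direction (1 probe per gene), up to 4 members of smallest p per list and the 3 smallest p of the stage difference. Genes and lists were chosen with earlier results of these data known. An "at least" fold sets the bright group's mean against the dim group's background limit. The number of arrays limits the precision. Replicate numbers did not pair the samples: deviations of same-numbered arrays correlated at 0.09, -0.14 and 0.11.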

Additional observations from a re-analysis of the deposited data

Results flagged for a closer look

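In 10 of 107 sets of values checked, 1 heterozygote lay far from the other three, where chance gives about 1 in 20 such sets. Replicate 4 accounted for 6 of them. It was low in Gabra6 (4.59, the others 5.48 to 5.62), Zic1 (8.75, the others 9.42 to 9.56) and the mean of the cerebellum genes (6.51, the others 7.26 to 7.39). It was also low in Adam23 (5.01, the others 5.19 to 5.21) and in the ribosomal protein gene Rps26 (10.97, the others up to 11.01), and high in Pknox2 (8.53, the others 8.23 to 8.28). Replicate 2 was low in S100a5 (6.04, the others 6.85 to 6.99) and in the mean of the endothelium genes (7.47, the others 7.51). Replicate 1 was low in Ska2 (5.55, the others 5.63 to 5.64), and replicate 3 was high in the mean of the cortical interneuron genes (9.45, the others 9.36 to 9.37). All values are log2 signals.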

How the results depend on the processing

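The count of probes past an adjusted p of 0.05 was 0 under all alternatives except these. It was 1 with median scaling and 2 with an intensity-dependent robust variance prior, and it ranged from 0 to 1 over the 7 fits with 1 array left out. The unadjusted count was 2417 with median scaling and 2405 with no filter on dim probes. For the stage difference the count was 4 with no filter on dim probes (1 higher and 3 lower) and 0 without the litter term or in males only. Meis1 stayed negative and short of the threshold in all alternatives run, from -0.77 to -0.43, and from -0.77 to -0.45 with 1 array left out. With the replicate number as a block, 0 probes passed and 1522 were at an unadjusted p under 0.05, with Meis1 at -0.45; the numbers do not pair these samples. The alternative with the slide as a block was not run, since the tables used here name no slide. Doc2g and Junb were the named genes that passed under an alternative, and both were positive in all of them. With 4 against 3 arrays, small changes near background could not be resolved.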

Other observations

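Beside the pituitary hormones, a few genes had a wide spread over the arrays that did not follow genotype. They were singled out after their values were seen. Lcn2, an iron-binding protein of neutrophils and reactive glia, was at 6.53, 5.13, 4.41 and 4.65 in heterozygotes and at 7.29, 4.82 and 4.62 in wild types. It was highest on wild type replicate 1 and heterozygote replicate 1, both rich in pituitary genes. Dlk1, an imprinted Notch-like gene expressed in pituitary, was at 9.08, 8.03, 6.73 and 6.27 in heterozygotes and at 8.07, 6.16 and 6.94 in wild types. Hoxb5, a homeobox gene of the caudal hindbrain and spinal cord, was at 6.68, 5.25, 4.61 and 5.35 in heterozygotes and at 5.84, 6.88 and 5.76 in wild types. Xlr4a, an imprinted X-linked gene, was low on heterozygote replicate 4 (6.86) and wild type replicate 2 (7.49) and between 8.20 and 8.88 on the other five arrays.

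Scgn, the secretagogin gene of olfactory bulb interneurons, was not in the olfactory bulb list and was also singled out after its values were seen. It was at 5.86, 5.71, 6.43 and 6.36 in heterozygotes and at 5.62, 5.47 and 4.59 in wild types, a change of 0.87 ± 0.24 without overlap (adjusted p = 0.366 by limma).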
